A study of Rattus norvegicus with 9 samples.

Results

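The genes described here encode the initiation and elongation factors of cytoplasmic translation and the enzymes named after them. They were chosen by name: a gene was taken where the array annotation gave a probe set exactly 1 symbol starting with Eif or Eef. This gave 58 probe sets for 56 genes, out of 14506 genes named in this way on the array. Eef1a1 and Eif3h each had 2 probe sets, and the one with the higher mean over the 9 arrays was used. Whole blood, punches of the hippocampus (HC) and punches of the prefrontal cortex (PFC) of untreated male Wistar rats, 6 weeks old at purchase, were each measured in rats 2, 5 and 7, so that every tissue had 3 arrays and every rat all 3 tissues. The labels name no altered allele and no agent. The arrays were Affymetrix Rat Gene 1.0 ST chips, and the values are log2 intensities, so that a difference of 1 stands for a factor of 2. Values of 3 arrays are given below in the order rat 2, rat 5, rat 7.

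Protein synthesis starts when initiation factors bring the initiator tRNA, the small ribosomal subunit and the capped end of an mRNA together. eIF2 carries the initiator tRNA with GTP, eIF2B reloads eIF2 with GTP, and kinases that phosphorylate eIF2 stop that reloading and so slow translation as a whole. eIF4E holds the cap, eIF4G bridges to eIF3 on the small subunit, and eIF4A unwinds the leader, while the 4E-binding proteins keep eIF4E away from eIF4G. Elongation runs on eEF1A, which delivers aminoacyl-tRNAs, and eEF2, which moves the ribosome along and is switched off by its kinase. In neurons these steps are known as control points of synaptic plasticity. Red cells lose their ribosomes as they mature, and reticulocytes, their last RNA-bearing stage, have long been a source of cell-free translation systems.

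Many mRNAs of the translation apparatus begin at a C within a run of pyrimidines, a feature through which growth signals set their use by ribosomes. The windows around the annotated start were therefore read from RefSeq (GRCr8 build, 300 bases each, of which 250 lie before the start), and 49 of the 56 genes matched, with 53 windows. A C followed by at least 4 C or T, beginning within 5 bases of the start on the gene's strand, stood in 12 of the 53 windows (22.6%), against 17.0% of all windows in the table and 16.2% of those of genes named on the array. The windows of Eif4e2, Eif4ebp2, Eif2ak1 and Eef2k held no such run and are not shown. The following stretches of 60 bases, 40 before the start and 20 from it, are from selected members and do not stand for the set. Where the search found such a C, capitals mark the whole unbroken run of C and T that holds it.
Eef1a1, chr8:88225050-88225109, minus strand: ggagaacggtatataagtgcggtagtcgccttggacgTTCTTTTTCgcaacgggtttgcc
Eef1a2, chr3:188652614-188652673, minus strand: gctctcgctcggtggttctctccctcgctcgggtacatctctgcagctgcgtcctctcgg
Eef1b2, chr9:72074051-72074110, plus strand: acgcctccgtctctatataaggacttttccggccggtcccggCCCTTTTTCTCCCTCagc
Eef1e1, chr17:26354207-26354266, plus strand: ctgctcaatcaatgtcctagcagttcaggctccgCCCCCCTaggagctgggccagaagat
Eif4a1, chr10:54888583-54888642, minus strand: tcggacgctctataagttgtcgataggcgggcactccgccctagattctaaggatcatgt
Eif4a2, chr11:91275304-91275363, minus strand: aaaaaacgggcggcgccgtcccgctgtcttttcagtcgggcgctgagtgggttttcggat
Eif4e, chr2:229740713-229740772, plus strand: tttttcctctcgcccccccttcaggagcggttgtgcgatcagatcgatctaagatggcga

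The run was 9 bases long in Eef1a1, 15 in Eef1b2 and 7 in Eef1e1, and the search found none at the start of Eef1a2, Eif4a1, Eif4a2 or Eif4e. The letters GGGCGG, on either strand, were in 69.8% of the members' windows of 300 bases, against 33.1% of all windows and 50.1% of those of named genes. TATAAA, on either strand, was in 5.66%, against 14.2% and 11.6%. The median number of CG pairs per window was 23, against 7 over all windows and 16 over named genes. Among the genes called higher in brain than in blood below, 22.2% of windows had the pyrimidine run and 66.7% GGGCGG, and among those called lower 15.4% and 76.9%. These matches describe letters in a window of an annotation and are no sites, and the shares of the called genes rest on 27 and 13 windows.

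The tissues carried their own marker genes. All 6 neuron, 4 astrocyte and 3 oligodendrocyte markers with a probe set were called higher in brain. All 5 erythroid, 4 T cell, 2 B cell, 4 neutrophil and 3 platelet markers were called lower. The 4 microglia markers had means of 7.07 to 9.08 in blood, and 3 of them were called lower in brain. The median level of the erythroid markers was 12.2, 12.5 and 12.2 in blood and 5.08 to 5.59 on the 6 brain arrays. Blood spread more than brain: the median SD over the 56 members was 0.194 among the 3 blood arrays, 0.0476 in HC and 0.0465 in PFC. Rat 5's blood gave the lowest of the 3 blood values for 35 of the 56 members and the highest for 14, and its T cell markers had a median of 9.68 where the other blood arrays had 10.3 and 10.4. Differences were tested with limma on all 29214 probe sets with values, with array weights set per tissue, and are called where the p adjusted over all probe sets (Benjamini-Hochberg) was under 0.05. The samples were bulk tissue, in which a larger share of a cell type and more RNA of a gene per cell cannot be told apart.

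Nearly the whole translation factor set was detected in all 3 tissues. With the study's cut-off for presence, a mean above 6.2, 55 members were present in blood, 53 in HC and 53 in PFC, and 52 in all 3 tissues. Eef1akmt2, a lysine methyltransferase of eEF1A, missed the cut-off in blood with a mean of 6.08. Eef2k (6.15 in HC and 6.12 in PFC), Eef2kmt (5.68 and 5.76) and Eif3i (6.02 and 6.04) missed it in both brain tissues. All 56 members lay above the level that 95% of 1298 probe sets for odorant, vomeronasal and taste receptors did not reach, which was 5.53 for blood, 4.88 for HC and 4.85 for PFC. Eef1a1 had the brightest probe set of the members in every tissue, with means of 12.75, 13.05 and 12.95.

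Blood and brain differed in most members, in both directions. Taking brain as the mean of HC and PFC, 26 of the 56 members (46.4%) were called higher in brain, 14 (25.0%) lower, and 16 had no call. Over all probe sets 27.4% were called higher and 41.9% lower, and over the 14506 named genes 35.9% higher and 37.6% lower. All 40 called members had the same direction in HC and in PFC and in each of the 3 rats. The calls came from these same arrays, so this is no separate support for them. In 43 members (76.8%) the 3 blood values and the 6 brain values did not overlap, a share close to the 74.8% of all named genes. The median difference was 0.28 for the members, -0.11 for named genes and -0.31 for all probe sets. Named genes include many under the presence cut-off, while every member passed it in at least 1 tissue. With only probe sets above 6.2 in at least 1 tissue fitted, 5126 of 9926 named genes were called higher and 2800 lower (median 0.40). All 56 members stayed, with 26 higher and 15 lower (median 0.28). The members' lean towards higher calls thus depends on the genes they are compared with. Counts by role below rest on few genes each and are to be read beside these shares.

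These directions hold relative to the deposited scaling, under which the arrays had medians of 5.99 to 6.09. Their SDs were 1.85 to 1.90 in blood and 2.18 to 2.21 in brain, so blood and brain arrays did not share 1 distribution. Centring each array on 17 probe sets of a panel of general housekeeping genes lowered every brain minus blood difference by 1.31, and the members then split into 3 higher and 48 lower, with a median of -1.03. Eef1a2 (2.56), Eif4a2 (0.91) and Eef1akmt2 (0.74) were the members still higher, all 14 members called lower remained lower, and the other 23 members called higher turned negative. Of the panel itself, 15 of 17 genes were called higher in brain on the deposited scale. Centring on each array's median moved the differences by 0.07 and gave 28 higher and 14 lower. "Higher in brain" therefore means below: above 0 on the deposited scale. That 0 lay above the median difference of all probe sets (-0.31). It lay under that of named genes above 6.2 in at least 1 tissue (0.40).

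**Figure D1:**
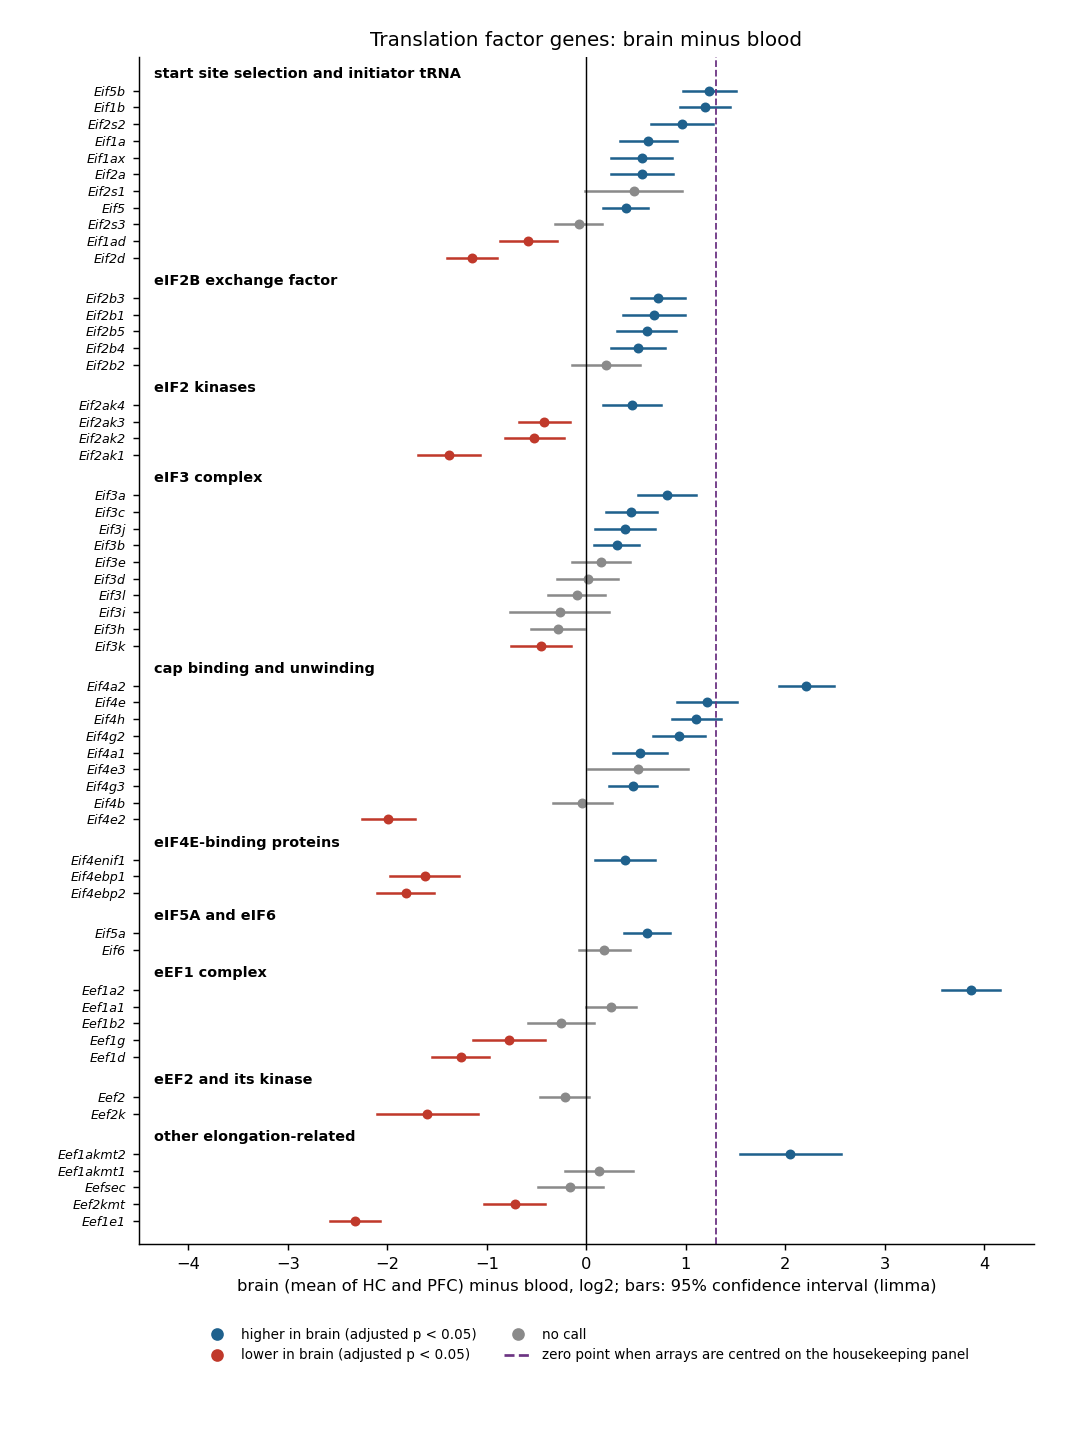
Brain (mean of HC and PFC) minus blood for each of the 56 genes, in log2, grouped by role, with 95% confidence intervals from limma and colours for the call. Eef1a2, Eif4a2 and Eef1akmt2 lie to the right of the dashed line, the zero point after centring on the housekeeping panel (1.31), and the other 23 genes called higher lie to its left, so their sign depends on the scaling.

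Wide differences made up a smaller share of the members than of all named genes. Many named genes lay under the presence cut-off in every tissue, while no member did. The shares among named genes above the cut-off were not computed. On the deposited scale, differences beyond 1 in either direction were seen in 26.8% of the members (7 higher, 8 lower) and in 37.0% of named genes, and differences within 0.5 in 24 members (42.9%) and in 33.0% of named genes. After centring on the housekeeping panel, 53.6% of the members (1 higher, 29 lower) and 70.5% of named genes lay beyond 1, and 7 members (12.5%) and 14.2% of named genes within 0.5, so that the order of the latter shares depends on the scaling.

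**Figure D2:**
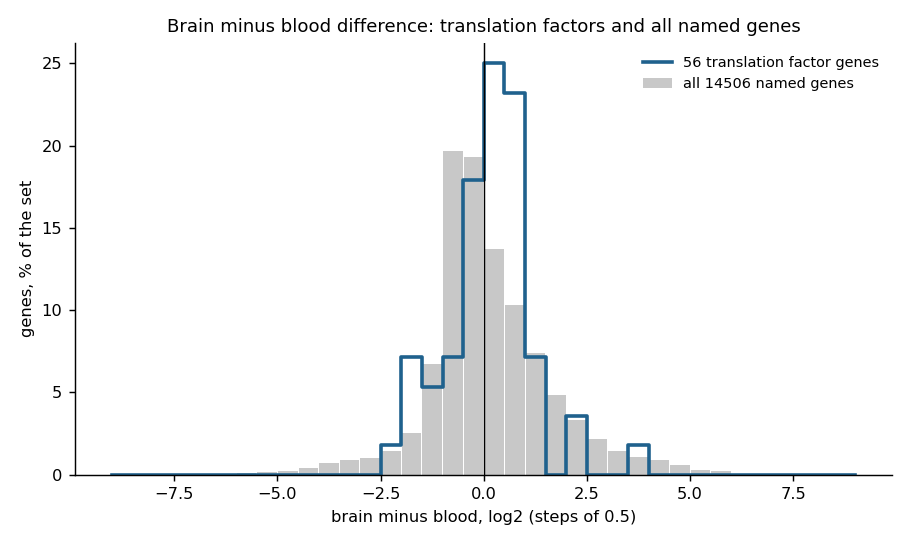
Share of genes in each step of 0.5 of the brain minus blood difference (log2, deposited scale), for the 56 translation factor genes (line) and all 14506 named genes (bars), including those under the presence cut-off. The steps from 0 to 1 hold 25.0% and 23.2% of the translation factors and 13.7% and 10.3% of named genes, and all of these members turned negative after centring on the housekeeping panel.

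Eef1a2, Eef1e1 and Eif4a2 marked the ends of the set. Eef1a2 is the form of eEF1A of neurons and muscle. It read 7.12, 7.48 and 7.24 in blood, 11.01, 11.01 and 11.09 in HC, and 11.34, 11.20 and 11.21 in PFC. Every brain array was thus more than 3 above every blood array, and the fitted difference was 3.87 ± 0.129 (SE), 14.6-fold, with an adjusted p of 6.64e-09. Eef1a1, the form present in nearly all cells, read 12.80, 12.57 and 12.89 in blood, 13.06, 13.09 and 13.01 in HC, and 12.95, 12.95 and 12.95 in PFC. Its difference of 0.25 (95% confidence interval 0.0012 to 0.50) had no call at an adjusted p of 0.0681, and it was called higher with arrays centred on their median (0.0304) and lower with arrays centred on the housekeeping panel. Its second probe set read within 0.05 of the first on every array. Eef1a1 has many processed copies in mammalian genomes and its sequence is close to that of Eef1a2, and how far probes cross between them was not analysed here.

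The remaining subunits of eEF1, which belong to the complex that exchanges the nucleotide on eEF1A, were lower in brain or without a call. Eef1d read 8.94, 9.01 and 8.81 in blood and 7.55 to 7.75 on the brain arrays, a difference of -1.26 ± 0.128 (adjusted p 1.52e-05). Eef1g read 10.73, 10.05 and 10.78 in blood and 9.63 to 9.80 in brain, a difference of -0.77 ± 0.161 (adjusted p 0.00196). Rat 5's blood lay below the other blood arrays for Eef1g, yet above all brain arrays. Eef1b2 had 8.49, 7.98 and 8.64 in blood and 8.01 to 8.22 in brain, which overlap, and no call (-0.26, adjusted p 0.144). Without the blood array of rat 5 Eef1b2 was called lower at an adjusted p of 0.0133. Eef1a2, the eEF1A gene that was higher in brain, was thus measured in the same arrays in which 2 of these 3 subunits were lower.

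Eef2 had no call, while its kinase was lower in brain. Eef2 read 11.62, 11.40 and 11.64 in blood and 11.29 to 11.37 in brain, a difference of -0.22 ± 0.108 with no call (adjusted p 0.0968). Without the blood array of rat 5 it was called lower (adjusted p 0.0383). Eef2k, the kinase that inactivates eEF2, read 7.69, 8.16 and 7.33 in blood, 6.17, 6.001 and 6.27 in HC and 6.02, 6.01 and 6.32 in PFC. Its difference of -1.60 ± 0.224, 3.02-fold lower in brain (adjusted p 1.59e-04), was called although the brain means lay under the presence cut-off.

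Of 5 further genes with elongation factor names, 1 was higher, 2 lower and 2 without a call. Eef1e1, which despite its name encodes a scaffold protein of the multi-tRNA synthetase complex, had the widest negative difference of all members: 11.41, 11.42 and 11.45 in blood against 9.02 to 9.19 in brain. The difference was -2.33 ± 0.112, 5.03-fold, with an adjusted p of 7.06e-08. Eef1akmt2 read 6.63, 5.27 and 6.33 in blood, 8.24, 8.16 and 8.23 in HC and 7.99, 8.03 and 8.12 in PFC. Its blood arrays spread the most of all 56 members (SD 0.713), and its difference of 2.05 ± 0.225 (adjusted p 2.76e-05) nevertheless separated all brain from all blood arrays. Eef2kmt, which methylates eEF2, read 6.14, 6.52 and 6.66 in blood and 5.60 to 5.77 in brain (-0.72 ± 0.136, adjusted p 0.00107). Eef1akmt1 and Eefsec, the factor for selenocysteine, had no call (0.13 and -0.16).

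**Figure D3:**
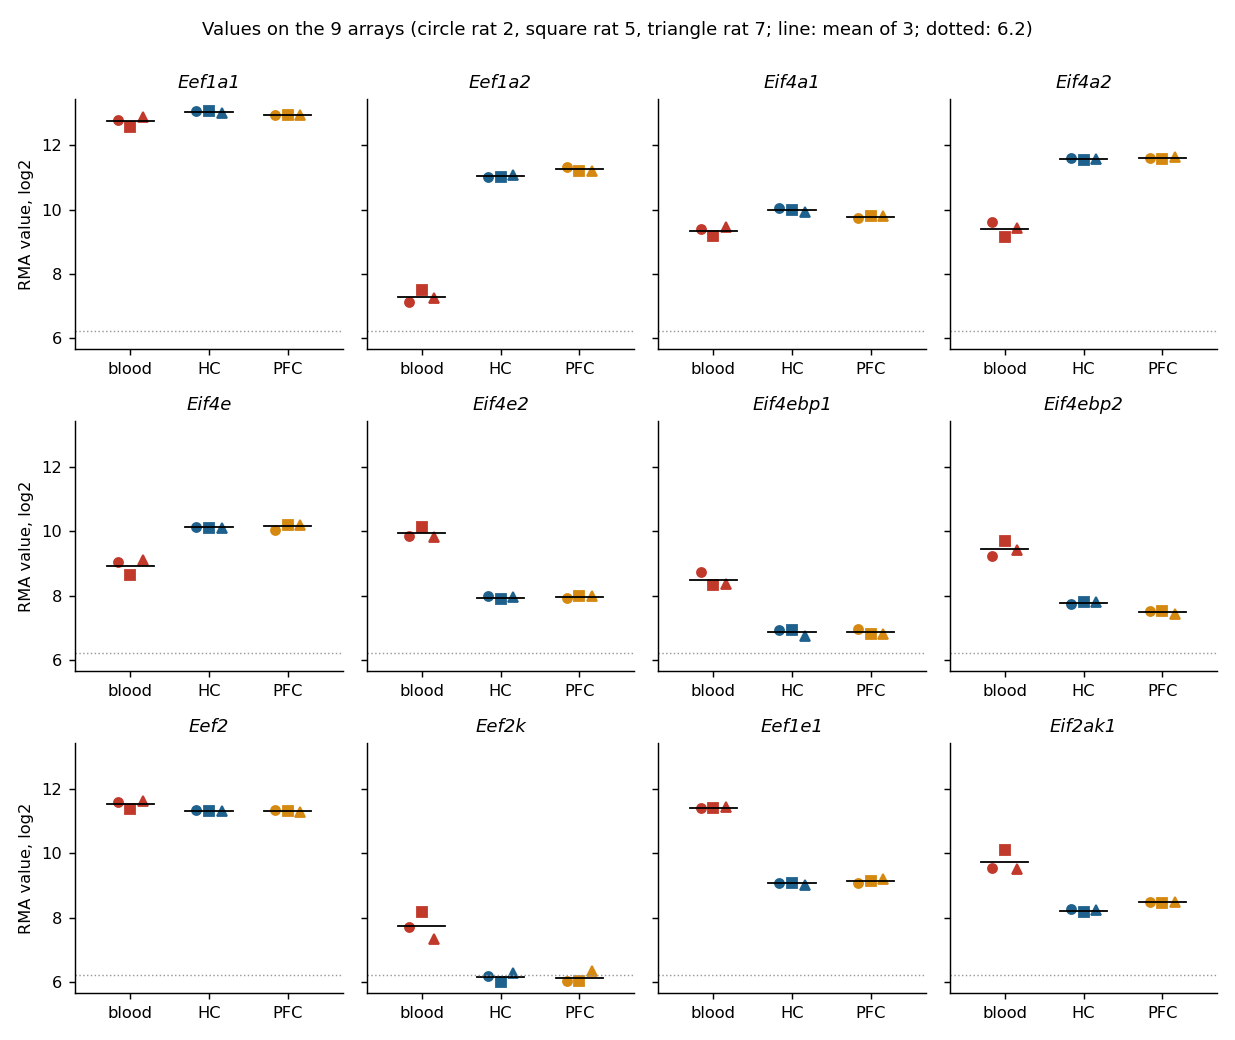
Log2 values of 12 translation factor genes on each array, by tissue, with a line at the mean of 3 rats and a dotted line at the presence cut-off of 6.2. Blood and brain do not overlap in any of the 12 panels, and Eef1a1 (difference 0.25, negative after centring on the housekeeping panel) and Eef2 (-0.22) are the panels without a call.

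Among 11 factors of start site selection and initiator tRNA delivery, 7 were called higher in brain, all 7 turning negative after centring on the housekeeping panel, 2 lower and 2 had no call (median 0.56). Eif5b, the GTPase that joins the ribosomal subunits, read 7.43, 7.13 and 7.48 in blood, 8.68, 8.65 and 8.67 in HC and 8.46, 8.46 and 8.57 in PFC (1.24 ± 0.120, adjusted p 1.12e-05). Eif1b, a close relative of the start codon factor eIF1, read 7.56, 7.61 and 7.89 in blood and 8.82 to 8.95 in brain (1.19 ± 0.113, adjusted p 9.06e-06). In both genes all brain arrays lay above all blood arrays, and after centring on the panel their differences were -0.07 and -0.11 with no call. The 3 subunits of eIF2 were not alike. Eif2s2 (beta) read 8.06, 8.26 and 8.48 in blood and 9.12 to 9.35 in brain (0.97 ± 0.139, adjusted p 1.91e-04; -0.34 after centring on the panel), while Eif2s1 (alpha, 0.48, adjusted p 0.0740) and Eif2s3 (gamma, -0.08, adjusted p 0.527) had no call. Without the PFC array of rat 2 Eif2s1 was called higher (adjusted p 0.00577). Whether the subunits differ from each other was not tested.

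The 2 members of this group that were lower in brain were Eif2d and Eif1ad. Eif2d, which can deliver tRNA without GTP and also acts in ribosome recycling, read 8.14, 8.18 and 8.12 in blood and 6.93 to 7.11 in brain (-1.15 ± 0.113, adjusted p 1.22e-05). Eif1ad, named for a domain it shares with eIF1A, read 7.58, 7.06 and 7.52 in blood and 6.76 to 6.82 in brain (-0.58 ± 0.127, adjusted p 0.00253). Eif1ad lost its call without all 3 arrays of rat 2 (adjusted p 0.0560) or of rat 7 (0.0519), and so did Eif5, called higher (0.39), at 0.0836 and 0.0628. Eif1ax, also called higher, lost its call without the blood array of rat 2 (0.0534).

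eIF2B, the exchange factor of eIF2, had 5 subunit genes on the array, of which 4 were called higher in brain, between 0.52 and 0.72, and all 4 turned negative after centring on the housekeeping panel. Eif2b3 (gamma) read 6.42, 6.45 and 6.38 in blood and 7.03 to 7.21 in brain (0.72 ± 0.123, adjusted p 5.74e-04). Eif2b1 (alpha) read 7.65, 7.40 and 7.48 in blood and 8.05 to 8.27 in brain (0.68 ± 0.138, adjusted p 0.00177). Eif2b2 (beta) overlapped between blood (7.72, 7.12 and 7.71) and brain (7.60 to 7.83) and had no call (0.20, adjusted p 0.263). Without the arrays of rat 7 Eif2b4 had an adjusted p of 0.0507.

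The 4 kinases of eIF2, which answer to different stresses, split 1 to 3. Eif2ak1, the kinase held in check by heme and known from reticulocytes, read 9.55, 10.11 and 9.52 in blood, 8.26, 8.17 and 8.22 in HC and 8.49, 8.45 and 8.49 in PFC. It was 2.60-fold lower in brain (-1.38 ± 0.138, adjusted p 1.43e-05). The blood array with its highest value, that of rat 5, was also the one with the highest median of the erythroid markers (12.5). Ahsp, Slc4a1 and Epb42 were highest on that array, but Alas2 was highest in rat 7 and Hbb in rat 2. The part of these cells in the difference was not tested. Eif2ak2 (PKR), which senses double-stranded RNA and is induced by interferon, read 8.00, 7.55 and 7.83 in blood, 7.40, 7.40 and 7.53 in HC and 7.06, 7.14 and 7.12 in PFC (-0.52 ± 0.133, adjusted p 0.00629). Eif2ak3 (PERK), the kinase of endoplasmic reticulum stress, read 8.47, 8.30 and 8.61 in blood and 7.97 to 8.08 in brain (-0.42 ± 0.115, adjusted p 0.00861).

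Eif2ak4 (GCN2), which senses uncharged tRNA, was the kinase with the opposite sign on the deposited scale. It read 6.64, 6.88 and 6.30 in blood and 7.01 to 7.16 in brain (0.46 ± 0.129, adjusted p 0.0101), and -0.85 after centring on the housekeeping panel. Single blood arrays decided several of these calls: without that of rat 7 Eif2ak4 had an adjusted p of 0.0897 and Eif2ak3 of 0.0676, and without that of rat 2 Eif2ak2 had 0.0658.

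eIF3, the scaffold on the small ribosomal subunit, gave 4 of its 10 measured subunits higher in brain, all 4 negative after centring on the panel, 1 lower and 5 without a call (median 0.08). Eif3a, the largest subunit, read 8.94, 8.69 and 8.72 in blood and 9.49 to 9.66 in brain (0.81 ± 0.129, adjusted p 3.77e-04). The other calls were within 0.5 of 0: Eif3c (0.45), Eif3j (0.39) and Eif3b (0.30) higher and Eif3k (-0.45) lower. Eif3b had adjusted p values of 0.0652 without the blood array of rat 2 and 0.0807 without that of rat 7. Eif3k had 0.107 and 0.0855 without the same arrays, and Eif3j had 0.152 and 0.0807 without those of rats 2 and 5. Eif3c had 0.0634 without all arrays of rat 2 and 0.0614 without those of rat 7. Eif3h (-0.29, adjusted p 0.0543) had no call with its brighter probe set and was called lower with the mean of its 2 probe sets (-0.41, adjusted p 0.0128). It was also called lower with equal array weights (0.00779), a variance that follows the level (0.0190), the filter at 6.2 (0.0467), and without the blood array of rat 5 (0.0446) or the HC array of rat 2 (0.0495).

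Of 9 factors that bind the cap and unwind the leader, 6 were called higher in brain, 1 lower and 2 had no call (median 0.54), and 5 of the 6, all but Eif4a2, turned negative after centring on the panel. Eif4a2, a helicase closely related to Eif4a1 and known to be abundant in brain, read 9.60, 9.13 and 9.41 in blood, 11.61, 11.54 and 11.59 in HC and 11.59, 11.59 and 11.63 in PFC. That is a difference of 2.21 ± 0.122, 4.63-fold, with an adjusted p of 1.83e-07. Eif4a1 read 9.40, 9.18 and 9.44 in blood, 10.04, 9.996 and 9.91 in HC and 9.74, 9.80 and 9.80 in PFC (0.54 ± 0.120, adjusted p 0.00285; -0.77 after centring on the panel). Eif4h, which stimulates eIF4A, read 8.75, 8.69 and 8.93 in blood and 9.78 to 10.02 in brain (1.11 ± 0.111, adjusted p 1.43e-05; -0.20 after centring on the panel).

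The cap-binding proteins Eif4e and Eif4e2 had differences of opposite sign on the deposited scale. Eif4e read 9.04, 8.65 and 9.10 in blood, 10.15, 10.10 and 10.12 in HC and 10.06, 10.21 and 10.20 in PFC (1.21 ± 0.134, 2.31-fold, adjusted p 2.87e-05; -0.10 with no call after centring on the panel). Eif4e2 (4EHP), which holds the cap without recruiting eIF4G and so represses its mRNAs, read 9.84, 10.13 and 9.84 in blood, 7.98, 7.88 and 7.94 in HC and 7.91, 7.99 and 7.98 in PFC. It was 3.98-fold lower in brain (-1.99 ± 0.118, adjusted p 3.09e-07), the second widest negative difference of the set. Eif4e3 read 6.85, 6.58 and 6.66 in blood, 7.32, 7.65 and 7.56 in HC and 6.72, 7.11 and 6.93 in PFC. Its PFC and blood arrays overlapped, and brain minus blood had no call (0.52, adjusted p 0.0619); without the HC or the PFC array of rat 2 it was called higher, at adjusted p values of 0.0272 and 0.0305.

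Of the eIF4G family, Eif4g2 (DAP5, which works without eIF4E) read 9.97, 9.68 and 9.97 in blood and 10.74 to 10.88 in brain (0.93 ± 0.117, adjusted p 6.87e-05). Eif4g3 read 8.82, 9.01 and 8.87 in blood and 9.32 to 9.44 in brain (0.47 ± 0.110, adjusted p 0.00385). Both were negative after centring on the panel (-0.37 and -0.84), and Eif4g3 lost its call without all arrays of rat 2 (adjusted p 0.0668) or of rat 7 (0.0542). Eif4b, a cofactor of eIF4A, had no call (-0.04, adjusted p 0.804).

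Both measured genes of the 4E-BP family, the repressors of eIF4E that mTOR phosphorylates, were lower in brain. Eif4ebp1 read 8.74, 8.34 and 8.36 in blood and 6.75 to 6.97 in brain, 3.08-fold lower (-1.62 ± 0.156, adjusted p 1.02e-05). Eif4ebp2, known as the main form of neurons, read 9.23, 9.71 and 9.41 in blood, 7.74, 7.80 and 7.80 in HC and 7.53, 7.51 and 7.43 in PFC, 3.52-fold lower (-1.82 ± 0.127, adjusted p 9.77e-07). Eif4enif1 (4E-T), which carries eIF4E to the nucleus and to P-bodies, was called higher (0.39, adjusted p 0.0256), and it turned negative after centring on the panel. Its call was lost without the blood array of rat 5 (adjusted p 0.0985) or of rat 7 (0.0750). Eif5a, which helps the ribosome past hard peptide bonds, read 10.23, 10.30 and 10.32 in blood and 10.84 to 10.94 in brain (0.61 ± 0.104, adjusted p 5.99e-04; -0.70 after centring on the panel), and Eif6 had no call (0.18, adjusted p 0.177).

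The ratio of 2 related genes on the same array does not change when the whole array is shifted. For 8 pairs with probe sets for both genes this log2 ratio was compared between the 3 blood arrays and the 3 rats' means of HC and PFC, with an exact two-sided permutation test whose smallest p with 3 against 3 is 0.1. Only its shift between tissues can be read, since probe sets differ in brightness. The Eef1a2 to Eef1a1 ratio was 3.61 higher in brain than in blood, and that of Eif4a2 to Eif4a1 was 1.67 higher. The Eif4e2 to Eif4e ratio was 3.20 lower, falling from 0.80, 1.48 and 0.74 in blood to between -2.22 and -2.14 on the brain arrays. Eif4e3 to Eif4e was 0.69 lower, Eif2ak1 to Eif2ak3 0.96 lower and Eif2ak4 to Eif2ak3 0.88 higher. In these 6 pairs blood and brain did not overlap, and each reached the smallest p of 0.1 (0.133 adjusted over the 8 pairs), so that none can pass 0.05 in this design. The Eif4e3 to Eif4e shift was -0.38 for HC alone and -1.0 for PFC alone.

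**Figure D4:**
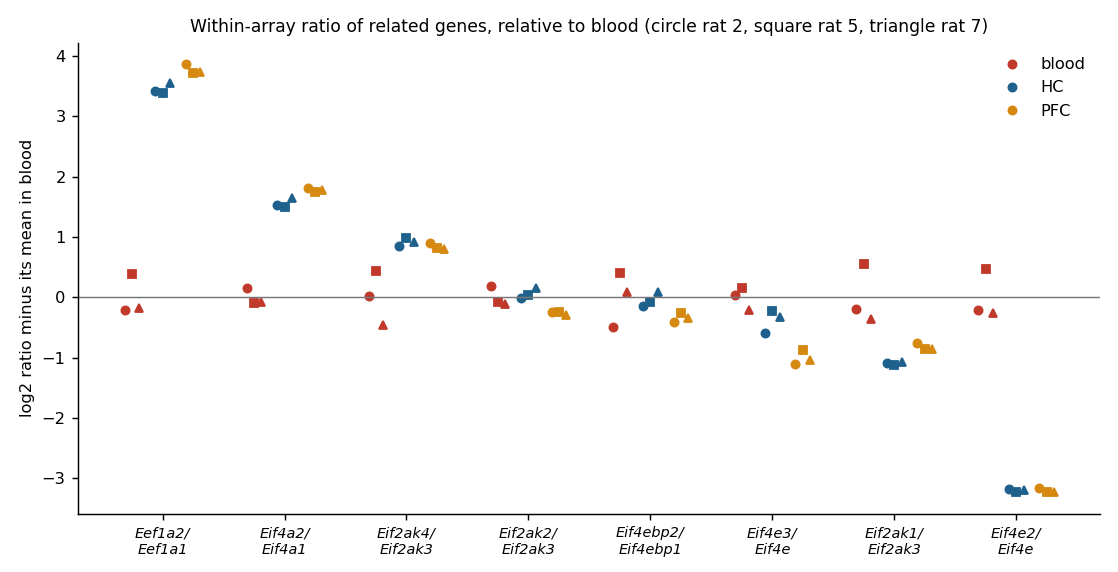
Log2 ratio of 2 related genes on each array minus the mean ratio in blood, for 8 pairs, by tissue and rat. Brain arrays of Eef1a2/Eef1a1 lie more than 3 above the blood mean and those of Eif4e2/Eif4e more than 3 below it, while Eif2ak2/Eif2ak3 and Eif4ebp2/Eif4ebp1 overlap between blood and brain.

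The remaining pairs overlapped between tissues. Eif4ebp2 to Eif4ebp1 shifted by -0.19 and Eif2ak2 to Eif2ak3 by -0.10, each with an exact permutation p of 0.5 (0.5 adjusted). Of Eif4ebp1 and Eif4ebp2, each lower in brain, the ratio in brain lay inside the range of the blood arrays (0.49 to 1.37). Eif1, Eif4g1, Eif4ebp3 and Eif5a2 had no probe set with exactly 1 such symbol and were not analysed here, which left 5 further pairs without a ratio.

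Genes that act on these factors were described from lists chosen beside them. Of 26 measured regulators of translation, 15 were called higher in brain (57.7%), 6 lower (23.1%) and 5 had no call (median 0.57). Of all named genes 35.9% were called higher and 37.6% lower. Of the 9926 above 6.2 in at least 1 tissue, 5126 were called higher and 2800 lower. After centring on the panel 5 regulators were higher and 17 lower (median -0.74). Mknk2 and Mknk1, the kinases that phosphorylate eIF4E, were among the lower ones (-3.91 ± 0.110 and -2.64 ± 0.107, adjusted p 3.13e-09 and 2.25e-08). Impact, an inhibitor of Eif2ak4 known to be abundant in neurons, was higher (2.76 ± 0.176, adjusted p 5.31e-07), as was Cpeb1, which controls poly(A) tails of neuronal mRNAs (2.58 ± 0.161, adjusted p 4.38e-07), and these signs held after centring on the panel. The blood mean of Cpeb1 (5.11) lay under the blood background level of 5.53, so its difference is a lower limit. On the deposited scale Eif4e was thus higher in brain, while its kinases and its 4E-BPs were lower.

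Termination and recycling genes gave 6 of 7 higher and none lower (median 0.80), with differences of 1.97 for Gspt2, 1.18 for Abce1 and 1.05 for Gspt1, and limma gave 0 lower at an unadjusted p under 0.05 as well. The blood mean of Gspt2 (5.39) lay under the blood background level of 5.53, so its difference is a lower limit. The mitochondrial translation factors, which serve another ribosome, gave 5 of 6 higher and none lower (median 1.03; 0 lower at an unadjusted p under 0.05 in limma), with 1.84 for Gfm2, 1.21 for Gfm1 and 1.18 for Mtrf1l. After centring on the panel the first list had 1 higher and 4 lower and the second 0 higher and 2 lower. Over all named genes 35.9% were called higher on the deposited scale, so counts of this size on short lists describe these genes and no more.

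HC and PFC were far closer to each other than either was to blood. The median absolute HC minus PFC difference over the 56 members was 0.08, against 0.55 between brain and blood, and only Eif4e3 differed by more than 0.5. In HC, 4 members (7.14%) were called higher than in PFC and 2 (3.57%) lower. Over all probe sets 7.02% were called higher and 6.86% lower, and over named genes 8.64% and 9.60%, so the members' shares were close to or below the background. The HC and PFC arrays did not overlap in 23 members (41.1%), against 37.0% of named genes.

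Eif4e3 was higher in HC by 0.60, 0.53 and 0.63 in rats 2, 5 and 7, and the fit gave 0.59 ± 0.108 (adjusted p 0.00502). Eif2ak2 was higher in HC by 0.33, 0.26 and 0.41 (0.33 ± 0.0646, adjusted p 0.00650), and Eif4ebp2 by 0.21, 0.29 and 0.37 (0.29 ± 0.0612, adjusted p 0.0101). Eif4a1 was higher by 0.30, 0.20 and 0.11 (0.20 ± 0.0580, adjusted p 0.0461). Each of these genes had the same direction in all 3 rats, with no overlap between the HC and PFC arrays. Eif2ak1 was lower in HC, with differences of -0.23, -0.28 and -0.27 (-0.26 ± 0.0670, adjusted p 0.0309), and Eef1a2 was lower, with -0.33, -0.20 and -0.12 (-0.21 ± 0.0622, adjusted p 0.0488). Among the eIF2 kinases, Eif2ak2 and Eif2ak1 thus had opposite signs between HC and PFC, and both had been lower in brain than in blood. At an unadjusted p under 0.05 in limma, 12 members differed between HC and PFC. The share of all probe sets under that threshold was not counted, so this number cannot be set against a background.

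**Figure D5:**
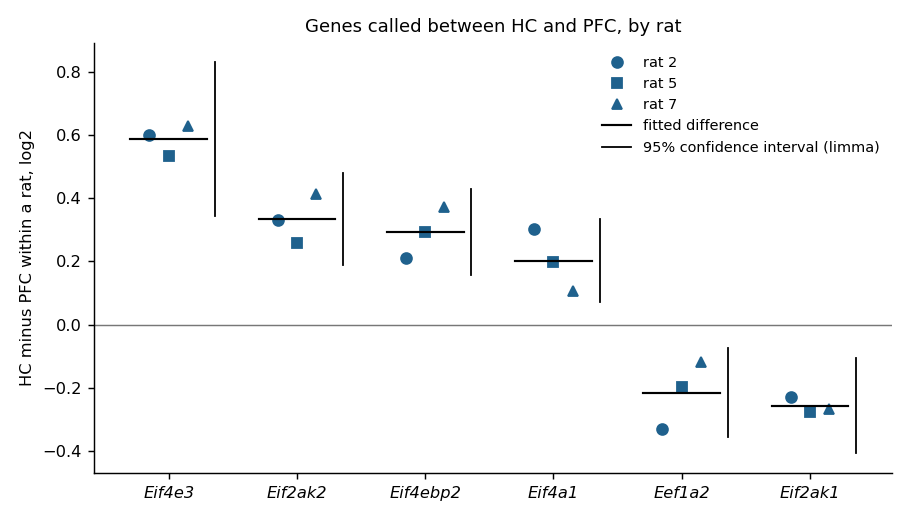
HC minus PFC within each rat (log2) for the 6 genes called between the tissues, with the fitted difference and its 95% confidence interval from limma. All 3 rats lie on the same side of 0 for every gene, from 0.53 to 0.63 for Eif4e3 and from -0.33 to -0.12 for Eef1a2.

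Several of these calls rest on single arrays. With the rat as a fixed block in limma 3 members were called higher and 0 lower (4 lower at an unadjusted p under 0.05). Eef1a2 (adjusted p 0.0755), Eif2ak1 (0.0523) and Eif4a1 (0.0755) lost their calls under it. With the rat as a random block 4 members were called higher and 2 lower, the same counts as without a block. Leaving out 1 of the 6 brain arrays removed the call of Eif2ak1 each time (0.0571 to 0.105) and those of Eef1a2 (0.0928 to 0.148) and Eif4a1 (0.0946 to 0.157) each time except for the HC array of rat 7. Without the PFC array of rat 7 Eif4ebp2 had an adjusted p of 0.0546, and without the blood array of rat 2 or 7 Eef1a2 had 0.0538 and 0.0627 and Eif4a1 0.0575 and 0.0554. Eif4e3 and Eif2ak2 kept their calls with any single array left out, but Eif2ak2 lost its call without all arrays of rat 5 (0.0614) or of rat 7 (0.0831) and after centring on the housekeeping panel (0.0719). With equal weights for all arrays, which pool the wider spread of blood with that of brain, only Eif4e3 was called, and the other adjusted p values were 0.225 for Eif2ak2, 0.352 for Eif4ebp2, 0.485 for Eif4a1, 0.532 for Eef1a2 and 0.648 for Eif2ak1. After centring on the panel Eif4ebp2 (0.111) and Eif4a1 (0.376) had no call either. Without all 3 arrays of rat 7 limma called 0 members higher and 0 lower in HC (8 and 3 at an unadjusted p under 0.05), and Eif4e3 had an adjusted p of 0.105.

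HC and PFC also differed in cell type markers. All 3 oligodendrocyte markers were higher in HC (by 0.79 to 0.97) and so were 2 of 4 astrocyte markers, Gfap (1.55) and Aqp4 (0.60), while Slc1a2 (0.21) and Aldoc (-0.05) had no call. Of the 6 neuron markers, 2 were lower in HC, Snap25 (-0.29) and Syt1 (-0.20), and 4 had no call. The T cell marker Cd3e was higher in HC (2.10), and the other 3 T cell markers had no call. The median level of the oligodendrocyte markers was 10.3, 10.3 and 9.77 in HC and 9.48, 9.13 and 8.87 in PFC. Of the 5 erythroid markers, 3 were lower in HC, among them Hbb (-0.97), with medians of 5.08, 5.32 and 5.10 in HC and 5.59, 5.36 and 5.32 in PFC. Ahsp, also among the 3, had means of 2.86 in HC and 3.36 in PFC, under the background levels of 4.88 and 4.85. The part of these cell types in the differences of the 6 genes was not tested. Of the 26 measured regulators of translation, 4 were called higher in HC, among them Cyfip1 (0.59) and Cpeb1 (0.46), and 5 lower, among them Cyfip2 (-0.41) and Dhps (-0.36), the enzyme that modifies Eif5a. These are 15.4% and 19.2% of the list, against 8.64% and 9.60% of named genes, and the list was chosen with earlier results known.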

How the data were processed

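Total RNA of blood (PAXgene kit) and of HC and PFC punches (TRIzol) was hybridised by the authors to 9 Rat Gene 1.0 ST arrays, and extraction and tissue cannot be told apart. The deposited values, between 1.53 and 14.0, are RMA intensities on a log2 scale that the authors quantile normalized with the Affymetrix power tools. The base of the logarithm was read from their range. The study's detection p was not used here. The series description names 3 rats, the study's methods 4 with 1 sample omitted, and the sample protocol 6. The number of arrays limits the precision. Except where a rat block is named, the limma fit had no term for the rat and took the 9 arrays as independent. Its p values rest on the spread of arrays within tissues, pooled with a weight per tissue and moderated over all probe sets.

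Of 29214 probe sets with values, 15310 carried exactly 1 symbol in the platform annotation, 323 several and 13581 none; 55 of the 56 members matched a GRCr8 gene by gene ID. Differences were fitted with limma 3.58.1 (R 4.3.3) on all probe sets with values, with a factor for tissue, no filter and array weights per tissue (blood 0.249, HC 2.19, PFC 1.84). Named with values per array are the 12 members with the widest called differences in each direction between brain and blood, 5 in each direction between HC and PFC, and those of related pairs; Eif2b2, Eef1b2 and Eef2 were added after their values were seen. The members and lists were chosen with earlier results of these data known. The rats pair the samples, since all tissues came from the same animals: deviations from the tissue means correlated between HC and PFC of the same rat (r 0.209, 0.0936 and 0.227 over probe sets), and hardly between blood and either (-0.0542 to 0.0484). Alternatives were other scalings, weights, filters, thresholds, rat blocks and left-out arrays; the script was tested on simulated data.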

Additional observations from a re-analysis of the deposited data

How the results depend on the processing

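Centring on the housekeeping panel gave 3 members higher and 48 lower in brain than in blood, and 1 higher (Eif4e3) and 5 lower in HC than in PFC. Under it 23 members called higher in brain changed sign, among them, of those named with values per array, Eif1b (-0.11), Eif2ak4 (-0.85), Eif2b1 (-0.63), Eif2b3 (-0.59), Eif2s2 (-0.34), Eif3a (-0.50), Eif4a1 (-0.77), Eif4e (-0.10), Eif4g2 (-0.37), Eif4g3 (-0.84), Eif4h (-0.20), Eif5a (-0.70) and Eif5b (-0.070), by construction, since it lowers all differences by 1.31. Between brain and blood the other settings gave 19 to 29 members higher and 10 to 17 lower. The fixed replicate block of the rats gave 27 and 14 and changed no call there but that of Eif4e3, which became higher. The random block gave 26 and 14. Between HC and PFC, equal weights for all arrays gave 1 higher (Eif4e3) and 0 lower (3 and 0 at an unadjusted p under 0.05 in limma). An adjusted p under 0.01 gave 2 and 0, and the 6 brain arrays alone gave 3 and 1. The fixed replicate block gave 3 and 0, and the random block 4 and 2. Leaving out arrays or rats gave 0 to 4 higher and 0 to 2 lower. The causes of these changes were not tested. The Eif4e3 to Eif4e ratio shifted by -0.38 in HC alone and by -1.0 in PFC alone. Members present in blood numbered 46 to 56, in HC 46 to 56 and in PFC 44 to 56 over all cut-offs tried.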
